A study of Homo sapiens with 36 samples.

Results

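HCT116 H2B-GFP 3/3 c11 is a clone of the human colorectal cancer cell line HCT116 that carries 3 copies of chromosome 3 and expresses the histone H2B fused to GFP. Its control is HCT116 H2B-GFP, the cells that received the extra chromosome by microcell-mediated transfer, so both groups carry the fusion protein. The modal chromosome number given for the control is 45, and none is given for the trisomic clone. The members examined here are all 279 mature miRNAs in the deposited table that compares 3 small RNA libraries of the trisomic clone with 3 of the control, out of 509 names over the 7 tables of a series of 36 libraries. The line is 1 clone grown from a single cell, so differences that come from the clone and differences that come from the added chromosome cannot be told apart. The study describes the libraries as biological replicates, and no further detail on separate cultures is used here. Each sample is bulk RNA, in which fewer cells that make a miRNA and less of it per cell cannot be told apart.

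A miRNA is cut from a hairpin in a longer transcript, and the mature strand guides a silencing complex to messenger RNAs. The seed, bases 2 to 8 from the 5′ end, decides most of the pairing, so miRNAs with the same seed form a family with overlapping targets. Hairpins often lie in introns or exons of a host gene and several may share 1 transcript as a cluster. Members of a cluster or host can therefore be made together, whereas members of a seed family are often encoded far apart.

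The sequences of the miRNAs on which the results turn are given first, with the seed in capitals (RefSeq, GRCh38.p14). The first 3 share a seed and show a family in which 1 member stood apart. The next 3 share the seed of a family whose listed members all lay above the control. The last 4 are a pair of overlapping names from chromosome X that were both lower, and a pair of rare miRNAs that were higher.
hsa-miR-30a-5p: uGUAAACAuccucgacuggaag
hsa-miR-30c-5p: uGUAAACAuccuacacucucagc
hsa-miR-30e-5p: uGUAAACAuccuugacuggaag
hsa-miR-181a-5p: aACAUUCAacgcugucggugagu
hsa-miR-181b-5p: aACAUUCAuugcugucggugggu
hsa-miR-181c-5p: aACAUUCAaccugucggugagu
hsa-miR-374b-5p: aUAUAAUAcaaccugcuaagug
hsa-miR-374c-5p: aUAAUACAaccugcuaagugcu
hsa-miR-138-5p: aGCUGGUGuugugaaucaggccg
hsa-miR-302a-5p: aCUUAAACguggauguacuugcu
Positions are counted from 1 at the 5′ end. From hsa-miR-30a-5p to hsa-miR-30e-5p there is 1 difference, C13U, and from hsa-miR-181a-5p to hsa-miR-181b-5p there are 3, A9U, C10U and A21G. Bases 3 to 22 of hsa-miR-374b-5p are the same as bases 1 to 20 of hsa-miR-374c-5p, so reads of these 2 names may have been split between them by the counting. The prefix hsa is left out from here on.

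The table gives 1 mean over all 6 libraries, 1 log2 fold change of trisomic over control and its standard error for each miRNA. Values of single libraries were not analysed here, so the depth of each library and the overlap of the groups are unknown, and the standard error carries the spread. The level in each group was worked out from the mean and the fold change, in normalised read counts. The median standard error (SE) was 0.22 on the log2 scale (0.12 to 0.38). The summed mean was 8945900 normalised reads, of which the 10 most abundant miRNAs took 90.1%. Names that end in 5p numbered 202, names that end in 3p numbered 4 and 73 gave no arm, so for many hairpins the 3p strand is not analysed here.

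The HCT116 label was checked against miRNAs typical of gut and other epithelium. All 3 intestinal markers were listed, with control and trisomic levels of 3708 and 2503 for miR-192-5p, 171 and 124 for miR-194-5p and 66.8 and 63.1 for miR-215. Of 6 epithelial markers 4 were listed, led by miR-200a-5p at 21861 in the control and 22913 in the trisomic cells. Markers of other tissues were listed too, with control levels of 19941 for the neuronal miR-9-5p, 1488 for the mesenchymal miR-145-5p, 348 for the muscle miR-499a-5p, 27.7 for the blood miR-142-5p and 18.5 for the liver miR-122-5p. These were 1 of 4, 1 of 4, 1 of 6, 1 of 4 and 1 of 1 names of their lists. Since nearly no 3p strands are in the table, a marker that is not listed says nothing of the cells.

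The first comparison asked how many miRNAs differed between the trisomic clone and its control. A deregulated miRNA was one whose deposited adjusted p (DESeq2) lay under 0.05 while its log2 fold change was 0.6 or more in size and its mean 10 or more, which held for the mean of all 279. By this rule 27 miRNAs (9.68%) were deregulated, 17 higher (6.09%) and 10 lower (3.58%) in the trisomic cells. Without the limit on the fold change 48 (17.2%) passed, 25 higher and 23 lower. Over all 279 the median log2 fold change was 0.01 and 143 miRNAs (51.3%) lay above 0. With both groups scaled to the same summed level, which lowers every log2 fold change by 0.13, 13 were higher and 20 lower, so the split by direction depended on the scaling. From the listed standard errors, 5 miRNAs differed by more than 0.6 on the log2 scale when tested against that limit (miR-30a-5p, miR-302a-5p, miR-138-5p, miR-3617-5p and miR-181a-5p), and with a t distribution of 4 degrees of freedom 1 call was left, miR-30a-5p.

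**Figure D1:**
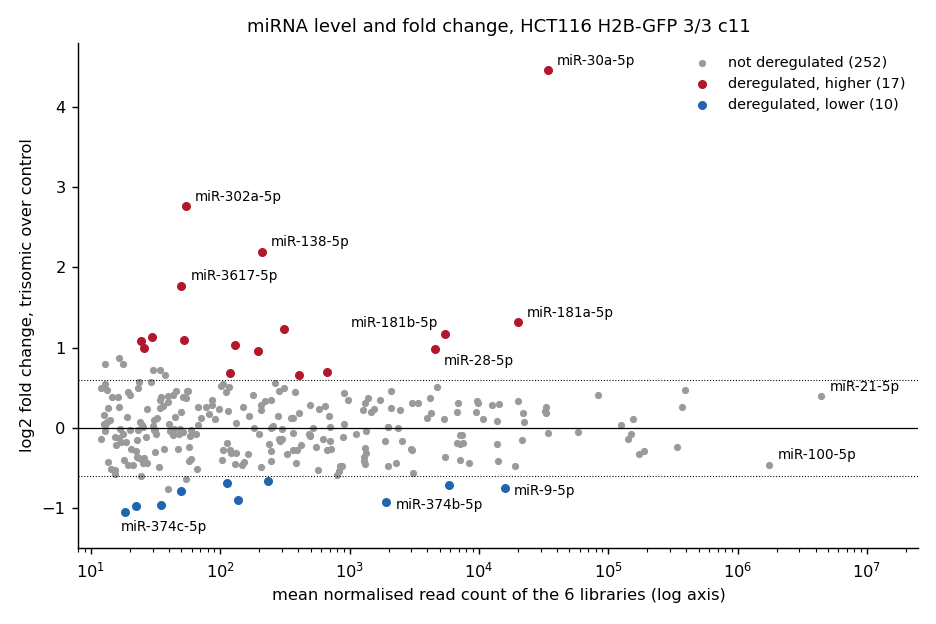
Log2 fold change of trisomic over control cells (vertical axis) against the mean normalised read count of the 6 libraries (horizontal log axis) for 279 miRNAs, with the 27 deregulated miRNAs in colour and dotted lines at log2 fold changes of 0.6 and -0.6. The point of miR-30a-5p at 4.46 stands far above the others, and 7 of the 81 miRNAs whose mean was 1000 or more were deregulated.

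Deregulated miRNAs were found among abundant and rare miRNAs, though not among the 10 most abundant. Among 81 miRNAs whose mean was 1000 or more, 7 were deregulated, and so were 10 of 115 whose mean was under 100, shares near the 9.68% over all miRNAs. The 7 abundant ones were miR-30a-5p, miR-181a-5p, miR-181b-5p and miR-28-5p, which were higher, and miR-9-5p, miR-146b-5p and miR-374b-5p, which were lower. The 17 higher miRNAs together went from 22318 normalised reads in the control to 110027 in the trisomic cells, and most of that came from miR-30a-5p.

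None of the 10 most abundant miRNAs reached the fold change limit. The level of miR-21-5p, an oncogenic miRNA abundant in many tumours, was 3805100 in the control and 4988970 in the trisomic cells (log2 fold change 0.39, SE 0.12, adjusted p 0.0119 by DESeq2 as deposited). This miRNA alone took 44.5% of the summed control level and 53.4% of the summed trisomic level. The second, miR-100-5p, was at -0.46 on the log2 scale (SE 0.16, adjusted p 0.0333, DESeq2), and the third, let-7i-5p, one of 0.47 (SE 0.17, adjusted p 0.0409). The other 7 did not pass the test and lay between -0.33 (let-7f-5p) and 0.26 (miR-10a-5p).

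The largest change was that of miR-30a-5p, a member of a family known to restrain autophagy and mesenchymal genes. Its level was 2961 in the control and 64949.6 in the trisomic cells, which is 4.46 on the log2 scale (SE 0.23, adjusted p 1.09e-84, DESeq2). Its share of the summed level went from 0.0346% to 0.695%. It is encoded in an intron of the long noncoding RNA gene LINC00472 on chromosome 6 (72113254 to 72113324, minus strand, GRCh37), outside the gained chromosome.

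The relatives of miR-30a-5p did not pass the test. The other 4 miR-30 names had log2 fold changes of 0.19 (miR-30c-5p), 0.11 (miR-30d-5p), -0.06 (miR-30e-5p) and -0.16 (miR-30b-5p), with standard errors between 0.13 and 0.16. One of the hairpins of miR-30c-5p lies in an exon of the same host gene (72086663 to 72086734), and its level was 8873 in the control and 10135 in the trisomic cells. A second hairpin of miR-30c-5p lies in an intron of NFYC on chromosome 1, and its reads cannot be assigned to either. The closest sequence, miR-30e-5p, which differs from miR-30a-5p by 1 base, had levels of 34879 and 33386. The summed level of the 5 names went from 197223 to 270421.

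The miR-181 family is known for its part in lymphocyte development and in differentiation. Of its 4 listed members 3 were deregulated, all higher, beside 9.68% deregulated and 6.09% higher over all miRNAs. The median log2 fold change was 0.91 against 0.01 over all miRNAs tested. The level of miR-181a-5p went from 11404 to 28438 (log2 fold change 1.32, SE 0.21, adjusted p 1.45e-08, DESeq2). For miR-181b-5p it went from 3350 to 7517 (1.17, SE 0.18, adjusted p 2.68e-09), and for miR-181d from 314 to 498 (0.66, SE 0.20, adjusted p 0.0142). The fourth, miR-181c-5p, lay at 0.54 on the log2 scale (SE 0.26) and did not pass the test (adjusted p 0.144).

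The family is encoded in 3 clusters, where a cluster is a set of loci within 10 kb of the next. The hairpins of miR-181a-5p and miR-181b-5p lie together in introns of MIR181A1HG on chromosome 1 (198828002 to 198828282 for the pair) and again in introns of MIR181A2HG on chromosome 9 (127454721 to 127456077). Reads of the mature strands cannot be assigned to 1 of these loci. The hairpins of miR-181c-5p and miR-181d lie in an intron of NANOS3 on chromosome 19 (13985513 to 13985825). Names of all 3 clusters thus included a deregulated one, and the fold changes were larger for the names of the first 2 clusters than for those of the third, a difference that was not tested.

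Most other groups with a deregulated member held only 1. Of 19 seed families with at least 2 listed members 5 held a deregulated miRNA. Of 28 clusters 4 did, and of 28 host genes 6 did. Seed families were formed only from the 227 miRNAs with a matched sequence, and clusters and host genes only from loci with coordinates. The deregulated miR-34c-5p thus entered no seed family and miR-24-1-5p no cluster or host gene, so these counts are incomplete. More than 1 deregulated member was found in 1 seed family, 2 clusters and 2 host genes, all of the miR-181 family. These groups all hold the same 2 deregulated names, miR-181a-5p and miR-181b-5p, so they are not separate observations. The clusters and host genes count them once per locus. Beside these counts stands the 9.68% of single miRNAs that were deregulated, and the counts were not tested. No group held both a higher and a lower deregulated miRNA. Only groups with more than 1 deregulated member could, and these all hold the same 2 names.

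**Figure D2:**
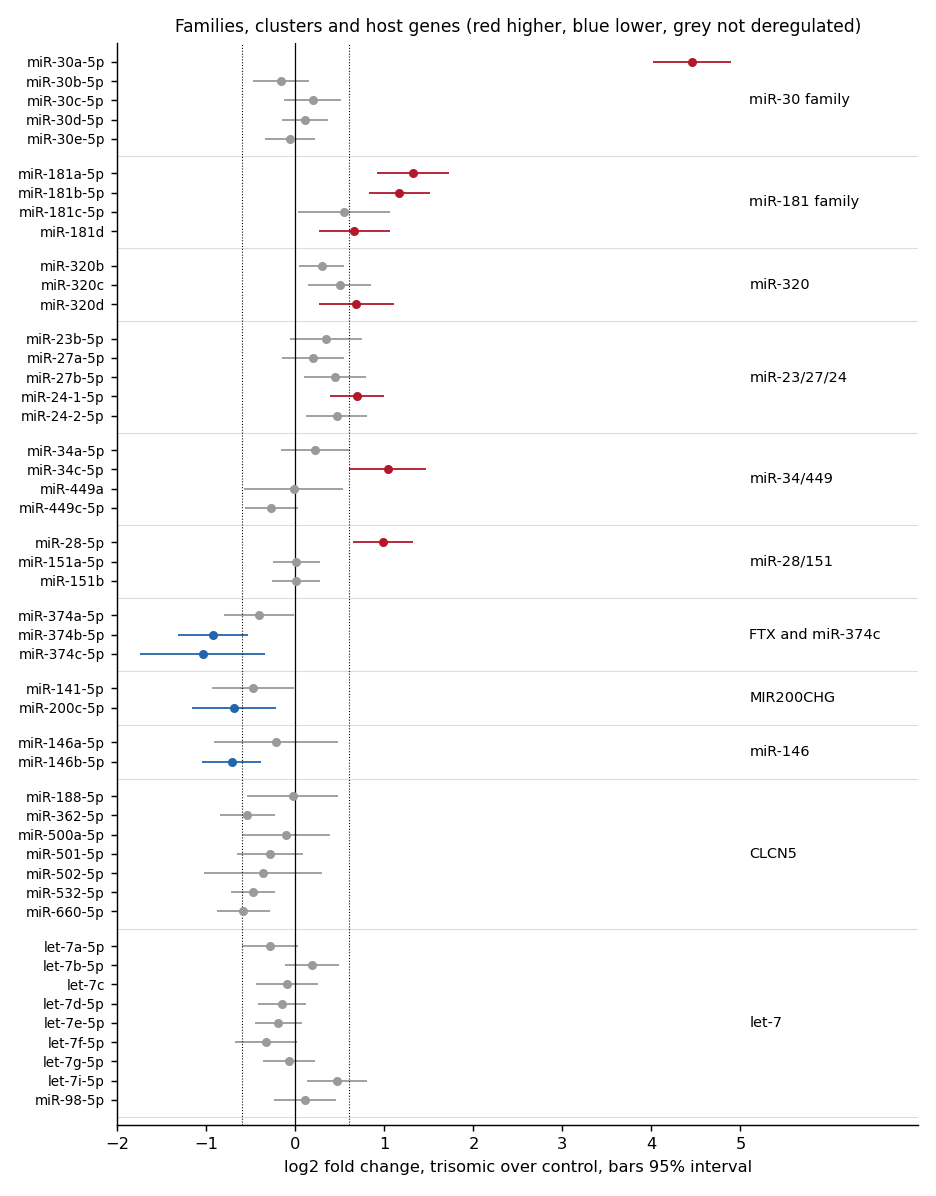
Log2 fold change of trisomic over control cells (horizontal axis) with its 95% interval for the members of 11 families, clusters and host genes, in red where deregulated and higher, in blue where deregulated and lower and in grey otherwise, with dotted lines at 0.6 and -0.6. The miR-181 members lie above 0 together, whereas in the miR-30 family miR-30a-5p lies at 4.46 and the others between -0.16 and 0.19.

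In the miR-320 family and the miR-23/27/24 list, 1 member each was deregulated, beside 9.68% over all miRNAs. The listed others lay above 0 as well, as did 51.3% of all miRNAs. The miR-320 names, made without Drosha, had log2 fold changes of 0.30 (miR-320b, adjusted p 0.0978), 0.50 (miR-320c, adjusted p 0.0409, DESeq2) and 0.68 (miR-320d, adjusted p 0.0155). These 3 names share their first bases, so they may share reads. In the list of the miR-23/27/24 clusters all 5 listed names lay above 0 with a median of 0.45. There miR-24-1-5p was deregulated at 0.69 (SE 0.15, adjusted p 0.000209), miR-24-2-5p passed the test at 0.46 (adjusted p 0.0451) and the other 3 did not pass.

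The next list joined miR-34, known as a target of p53, and miR-449, known as a regulator of ciliated cells. In it 1 of 4 listed names was deregulated, beside 9.68% over all miRNAs. The level of miR-34c-5p, from an exon of MIR34BHG on chromosome 11 (111384164 to 111384240), was 85.5 in the control and 175 in the trisomic cells (log2 fold change 1.04, SE 0.22, adjusted p 7.12e-05, DESeq2). The more abundant miR-34a-5p had levels of 2275 and 2659 and did not pass the test (0.23, adjusted p 0.447), nor did miR-449a at -0.02 and miR-449c-5p at -0.27. Over the wider list of growth regulators and p53 targets 8 of 10 names were listed, 1 was higher (miR-34c-5p), and miR-192-5p passed the test at -0.57 (adjusted p 0.000893) short of the fold change limit.

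The lower miRNAs included a group from the FTX locus, a noncoding gene of the X inactivation centre. For miR-374b-5p, in an exon of FTX (chromosome X, 73438382 to 73438453, minus strand), the level was 2517 in the control and 1326 in the trisomic cells (log2 fold change -0.92, SE 0.20, adjusted p 0.000109, DESeq2). The overlapping name miR-374c-5p was rare, at 24.6 and 11.9 (-1.04, SE 0.36, adjusted p 0.0312). In an intron of the same gene miR-374a-5p lay at -0.41 on the log2 scale (SE 0.20) and did not pass the test (adjusted p 0.154).

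A second group of the X chromosome, the 7 listed miRNAs of the CLCN5 gene, held no deregulated member. All 7 lay below 0, with a median of -0.36, whereas 51.3% of all miRNAs lay above 0. The 7 share 1 host gene and can be made together, so they are not separate observations. Beside 17.2% over all miRNAs, 3 of the 7 passed the test, all short of the fold change limit. Those were miR-660-5p at -0.59 (adjusted p 0.00187, DESeq2), miR-362-5p at -0.54 (adjusted p 0.0100) and miR-532-5p at -0.48 (adjusted p 0.00252), the most abundant member with levels of 22189 and 15953. Of all 25 miRNAs placed on chromosome X only, 8 lay above 0, beside 51.3% over all miRNAs, and the median was -0.23. Of the 25, 2 were deregulated, both lower (miR-374b-5p and miR-374c-5p), a share near the 9.68% over all miRNAs.

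Other lower miRNAs came from single loci or from several. The level of miR-9-5p, a neural miRNA encoded on chromosomes 1, 5 and 15, went from 19941 to 11870 (log2 fold change -0.75, SE 0.23, adjusted p 0.0145, DESeq2). The level of miR-146b-5p, a regulator of inflammatory signalling encoded on chromosome 10 (104196269 to 104196341), went from 7313 to 4449 (-0.72, SE 0.17, adjusted p 0.000470). Its relative miR-146a-5p was near the lower end of the table, at 16.7 and 14.3, and did not pass (-0.22, adjusted p 0.712).

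For miR-200c-5p, a minor strand of an epithelial miRNA, the level went from 139 to 86.3 (log2 fold change -0.69, SE 0.24, adjusted p 0.0333, DESeq2). It shares the host gene MIR200CHG on chromosome 12 with miR-141-5p, which lay at -0.48 (SE 0.24) and did not pass (adjusted p 0.158). The members encoded on chromosome 1, miR-200a-5p and miR-200b-5p, had log2 fold changes of 0.07 and 0.27, neither past the test. Further lower miRNAs were miR-5585-3p (-0.97), miR-548ar-3p (-0.96), miR-5091 (-0.90), miR-556-5p (-0.79) and miR-486-5p (-0.67), with standard errors from 0.21 to 0.34 and control levels from 29.5 to 287.

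Several of the higher miRNAs had few reads in the control. For miR-302a-5p, a miRNA of pluripotent cells, the level was 13.9 in the control and 94.2 in the trisomic cells (log2 fold change 2.76, SE 0.34, adjusted p 1.34e-13, DESeq2). The tables of other clones on the same control libraries put its control level at 7.61, with which the fold would be 13.2 in place of 6.79. The list of stem cell miRNAs held 8 names, of which this 1 was listed, and names counted mainly on the 3p strand could not be seen here. For miR-3617-5p, on chromosome 20, the levels were 22.6 and 77.4 (1.77, SE 0.32, adjusted p 7.90e-07). The liver miRNA miR-122-5p was listed at 18.5 and 40.4 (1.13, SE 0.37, adjusted p 0.0230). The means of those 3 were under 100.

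The remaining higher miRNAs outside the gained chromosome were miR-1296 (1.23), miR-1910 (1.09), miR-4466 (1.09), miR-939-5p (1.00) and miR-22-5p (0.96). Of these miR-1296, in an intron of JMJD1C on chromosome 10 (65132717 to 65132808), had the most reads, with levels of 187 and 439. Standard errors ran from 0.21 for miR-1296 to 0.36 for miR-4466 and miR-939-5p.

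The other families fixed for description held no deregulated miRNA. All 9 let-7 names, known to promote differentiation, were listed, with a median of -0.09, and let-7i-5p alone passed the test. For the miR-17-92 cluster and its paralogs, known to promote proliferation, 9 of 13 names were listed with a median of -0.17, and 1 passed the test, lower and short of the fold change limit. The medians were 0.24 for 5 names of the miR-15/16 family, 0.32 for 4 of the miR-29 family, 0.22 for the 2 miR-10 names and 0.08 for the miR-183 cluster, with no member past the test (DESeq2, as deposited). In the list of miR-99/100 and miR-125 miR-100-5p alone passed the test, with a median of 0.03, and miR-221-5p and miR-222-5p had log2 fold changes of 0.37 and -0.49, neither past the test.

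The next comparison asked whether the miRNAs encoded on chromosome 3 were higher with its extra copy. If the level of a miRNA followed the copies, its log2 fold change would be 0.58, the log2 ratio of 3 to 2. For 258 miRNAs all loci lay on 1 chromosome, and 12 of them lay on chromosome 3. The median of those 12 was -0.06, against 0.02 for the 246 on other chromosomes, a difference of -0.08. Of the 12, 5 lay above 0 (41.7%), against 129 of the 246 (52.4%). Ranked by the median from the highest, chromosome 3 was at place 18 of 23 chromosomes. The summed level of the 12 went from 233196 to 224206, a log2 ratio of -0.06.

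**Figure D3:**
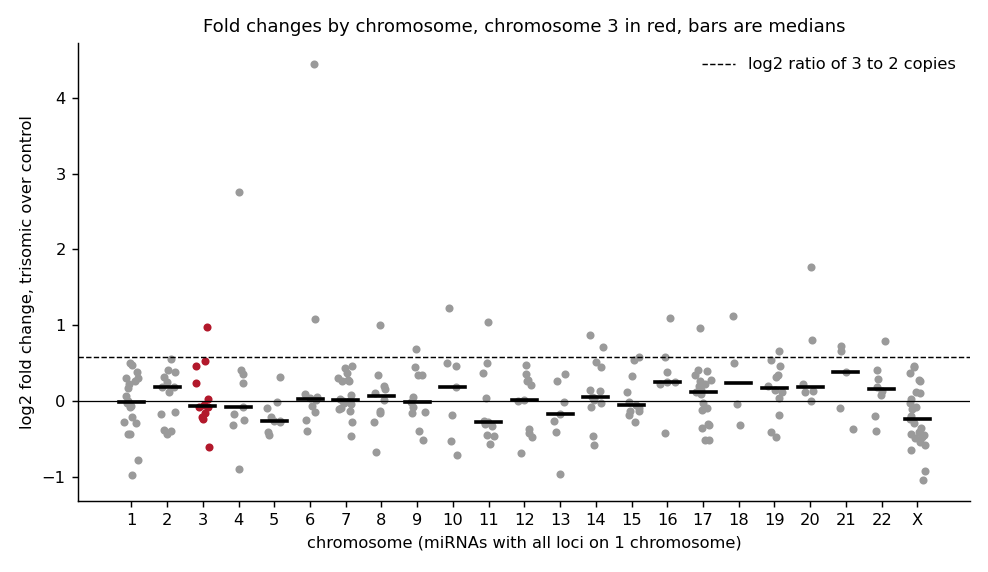
Log2 fold change of trisomic over control cells (vertical axis) for the 258 miRNAs with all loci on 1 chromosome, by chromosome, with chromosome 3 in red, black bars at the medians and a dashed line at 0.58, the log2 ratio of 3 to 2 copies. The median of chromosome 3, -0.06, lies near 0 and 1 of its 12 miRNAs lies above the dashed line.

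The 95% intervals of the single miRNAs take the listed fold changes and standard errors as they stand. For 6 of the 12 the whole interval lay below 0.58, for 5 it held that value and for 1 it lay above. Of the 5 that held it, 4 also held 0, so their precision could not separate no change from a change with copy number. The 6 below included the most abundant, let-7g-5p in an intron of WDR82 (52302292 to 52302379), with levels of 154718 and 146786 and a log2 fold change of -0.08 (95% interval -0.37 to 0.22).

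Also below were miR-191-5p and miR-425-5p, which lie together in an intron of DALRD3 (49057581 to 49058142) and had log2 fold changes of -0.05 (interval -0.29 to 0.19) and -0.21 (-0.54 to 0.13). The others were miR-15b-5p in SMC4, a cell cycle regulator (-0.16, interval -0.51 to 0.18), miR-548aq-3p in IGF2BP2 (-0.24, interval -0.58 to 0.10) and miR-548ab (-0.61, interval -1.26 to 0.04). The 5 whose interval held the copy ratio were miR-4796-5p (0.52), miR-1248 (0.46), miR-1224-5p (0.23), miR-4791 (0.03) and miR-548ay-5p (-0.08), with means between 17.6 and 101.

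**Figure D4:**
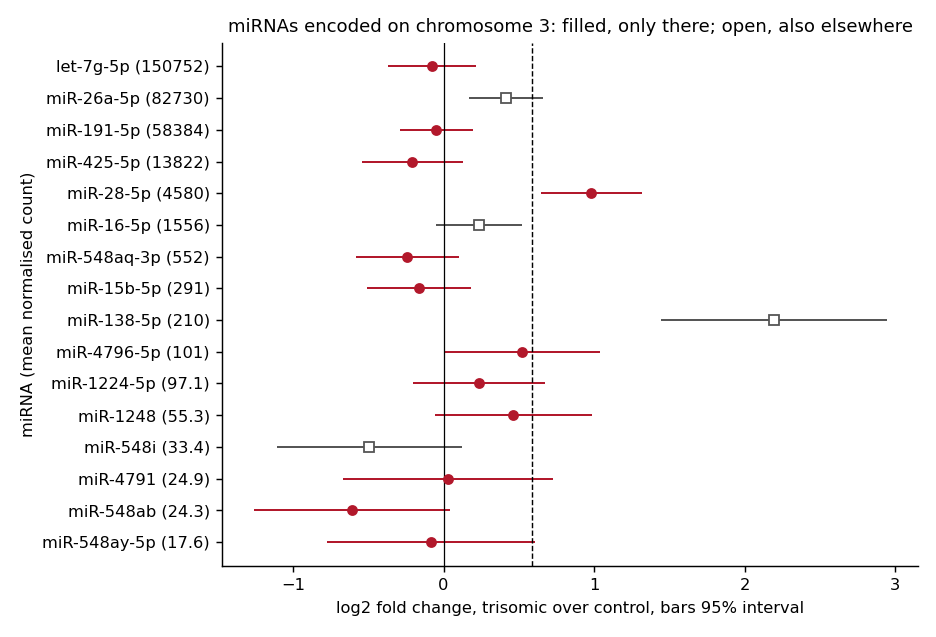
Log2 fold change of trisomic over control cells (horizontal axis) with its 95% interval for the 12 miRNAs encoded only on chromosome 3 (filled circles) and 4 that also have a locus elsewhere (open squares), in order of mean normalised read count, with a dashed line at 0.58, the log2 ratio of 3 to 2 copies. Of the 4 circles with a mean of at least 1000, let-7g-5p, miR-191-5p and miR-425-5p lie below the dashed line with their whole interval and miR-28-5p lies above it.

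The exception was miR-28-5p, the 1 deregulated miRNA encoded only on chromosome 3. It lies in an intron of LPP (188406569 to 188406654, plus strand), and its level was 3081 in the control and 6079 in the trisomic cells. Its log2 fold change was 0.98 (interval 0.65 to 1.32, SE 0.17, adjusted p 3.96e-07, DESeq2), above the copy ratio with its whole interval. The intervals were not adjusted for the 12 miRNAs looked at. With both groups scaled to the same summed level the log2 fold change was 0.85, and tested against 0.6 miR-28-5p was not called. Its relatives miR-151a-5p and miR-151b, encoded elsewhere, both had a log2 fold change of 0.01. The share of deregulated miRNAs on chromosome 3, 1 of 12, stands beside 9.68% over all miRNAs.

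The median was also taken over the more abundant miRNAs and over single loci. With a mean of at least 100, 7 miRNAs were left with a median of -0.08, and with a mean of at least 1000, 4 were left with a median of -0.06. With 1 miRNA taken per cluster or hairpin the median of 10 was -0.01. Scaling both groups to the same summed level lowered the median of the 12 to -0.19.

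A further 4 miRNAs have a locus on chromosome 3 and another elsewhere, so that an added chromosome 3 changes only part of their gene copies. Their median was 0.33 and 2 passed the test, both higher. Over all 279 miRNAs 48 (17.2%) passed, 25 of them higher. The level of miR-26a-5p, of CTDSPL on chromosome 3 and a locus on chromosome 12, went from 70938 to 94523 (log2 fold change 0.41, SE 0.13, adjusted p 0.0133, DESeq2). For miR-16-5p, whose hairpin in SMC4 lies beside that of miR-15b-5p, the log2 fold change was 0.24 (adjusted p 0.263), and for miR-548i it was -0.49 (adjusted p 0.284).

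The second that passed was miR-138-5p, a miRNA abundant in neurons, encoded at 44155704 to 44155802 on chromosome 3 and at 56892430 to 56892513 on chromosome 16. The levels worked out for it were 75.4 and 345, 2.19 on the log2 scale with the largest standard error in the table, 0.38 (adjusted p 3.96e-07, DESeq2). Which locus the reads came from cannot be told from the mature sequence. The control level of this miRNA was not the same in other tables on the same control libraries, as the next comparison shows.

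The control libraries of HCT116 H2B-GFP also serve the tables of HCT116 18/3 c2 and HCT116 H2B-GFP 8/3 c7, the HCT116 clones with an added chromosome 18 and 8. The control levels worked out from these tables allow a check. After a common scaling, the control levels of all 279 miRNAs were a median 1.01-fold apart from each of the other tables. More than 2-fold apart were miR-138-5p in both and miR-302a-5p in that of HCT116 18/3 c2. For miR-138-5p the control level was 75.4 by the table of the trisomy 3 clone and 5.56 by the others, scaled to it.

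With the control levels of the other tables the log2 ratio became 6.22 for miR-138-5p, 3.72 for miR-302a-5p, 4.93 for miR-30a-5p, 2.32 for miR-3617-5p and 1.92 for miR-122-5p. The listed fold change was nearer to 0 for 24 of the 27 deregulated miRNAs, and for 7 of the 27 the values were more than 0.2 apart. On chromosome 3 the largest shift was 0.15 and the median became -0.07. There 2 of the 12 then lay at or above 0.58, miR-28-5p at 1.04 and miR-4796-5p at 0.59, and with the listed standard errors 7 intervals lay wholly below it and 1 above. The listed values of these 5 increases thus lay below the ratios with the other control levels, and the cause was not tested.

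The 27 deregulated miRNAs are given next beside their values in the other clones, which share their control libraries and are therefore not independent. By the same call, 51 of 280 miRNAs (18.2%) were deregulated in HCT116 18/3 c2 and 44 of 293 (15.0%) in HCT116 H2B-GFP 8/3 c7. These shares and the 9.68% of the trisomy 3 clone are not at equal precision, since its standard errors were larger for several abundant miRNAs. In the trisomy 3 clone, HCT116 18/3 c2 and HCT116 H2B-GFP 8/3 c7 they were 0.23, 0.08 and 0.07 for miR-9-5p. For miR-28-5p they were 0.17, 0.09 and 0.09. HCT116 18/3 c2 carries no H2B-GFP by its name, and the paper lists it as made from HCT116 without the fusion. Its values against this control therefore mix the added chromosome 18 with the parental line and the fusion, which cannot be told apart. For miR-30a-5p the log2 fold change was 4.46 in the trisomy 3 clone, 0.94 in HCT116 18/3 c2 (SE 0.10) and -2.32 in HCT116 H2B-GFP 8/3 c7 (SE 0.10), so it differed from the control in all 3 clones and in both directions.

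For miR-181a-5p the values were 1.32, 0.40 and -0.27 in the same order, for miR-181b-5p 1.17, -0.09 and -0.31, and for miR-181d 0.66, -0.80 and -0.33. Of these names miR-181d was deregulated and lower in HCT116 18/3 c2, and none was deregulated and higher in either of the other clones. For miR-28-5p, on the gained chromosome 3, the values were 0.98, -0.20 and 0.11. For miR-34c-5p they were 1.04, 0.62 and -1.21, with a call in each clone.

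Some lower miRNAs had values below 0 in all 3 clones. For miR-374b-5p they were -0.92, -0.78 and -0.90, for miR-5091 -0.90, -1.49 and -2.22, and for miR-5585-3p -0.97, -1.18 and -1.31, each deregulated in every one of the 3. With shared control libraries, a deviation of the control and a change in each clone cannot be told apart. For miR-9-5p the values were -0.75, 0.12 and -0.06, and for miR-200c-5p -0.69, 0.48 and 0.08.

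**Figure D5:**
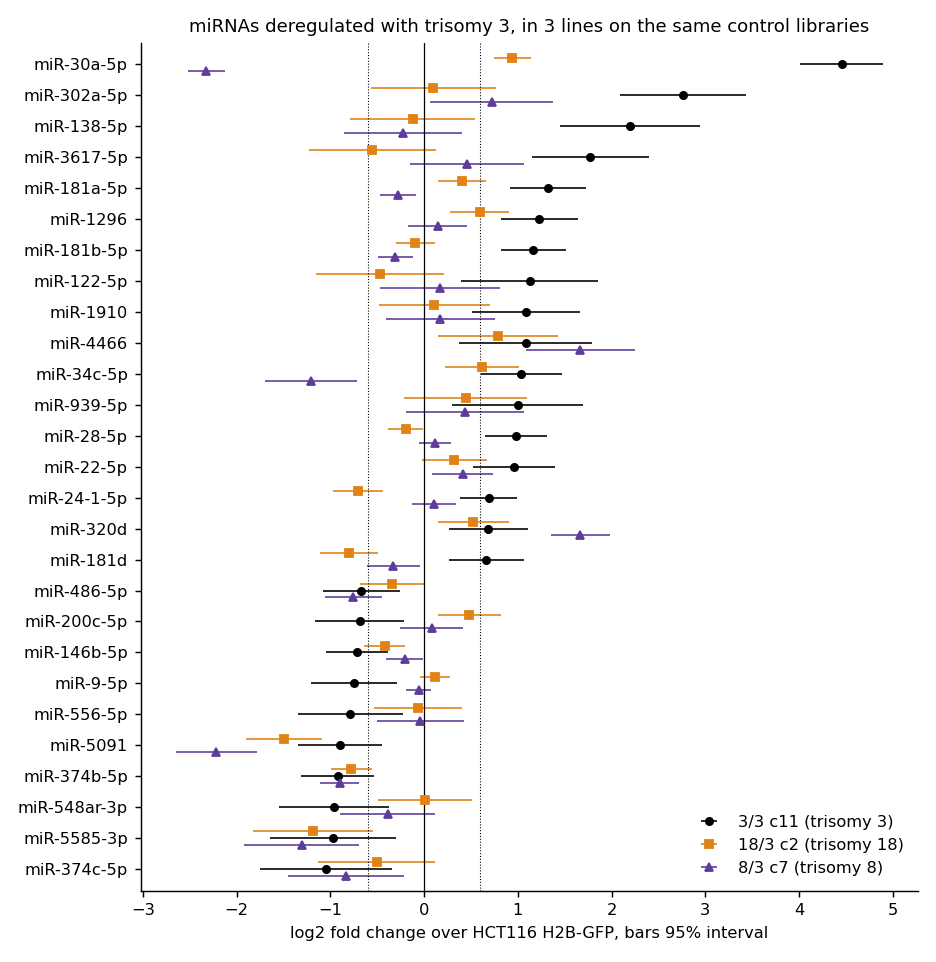
Log2 fold change over HCT116 H2B-GFP with its 95% interval (horizontal axis) for the 27 miRNAs deregulated in the trisomy 3 clone (black circles), with the values of the same miRNAs in HCT116 18/3 c2 (orange squares) and HCT116 H2B-GFP 8/3 c7 (purple triangles), which use the same control libraries. The values of miR-30a-5p spread from -2.32 to 4.46, whereas those of miR-374b-5p lie together between -0.92 and -0.78.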

How the data were processed

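The authors prepared small RNA libraries, sequenced them as single reads, removed adapters with cutadapt and mapped reads to hg19 with mirdeep2. The authors tested the 3 trisomic against the 3 control libraries with DESeq2, with no pairing term. In the deposited table the mean is a signal, the average over 6 libraries of counts corrected by size factors. The log2 fold change, its standard error, the score (their ratio) and the p-values are the authors' deposited comparison, used here because the table holds no values of single libraries; its adjusted p was checked to be Benjamini-Hochberg over the 279 listed miRNAs. Depth per library is unknown.

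With m the mean and r the ratio, the control level is 2m/(1 + r). Intervals are 95% normal intervals. Calls needed a mean of 10 or more, an adjusted p under 0.05 and a log2 fold change of 0.6 or more in size. Loci came from GENCODE 44 on GRCh37 (232 miRNAs) or, without coordinates, from flanking genes, sequences from RefSeq (227 of 279 matched). The named miRNAs are all deregulated ones, those on chromosome 3, the 10 most abundant, and members of groups with a call or of preset lists. Members and lists were chosen with earlier results of these data known. The call rule was run on simulated fold changes drawn with the listed standard errors, which does not test those standard errors. Python 3.11.15, pandas 2.3.3 and scipy 1.17.1 were used.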

Additional observations from a re-analysis of the deposited data

Results flagged for a closer look

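For each of the 279 miRNAs the log2 fold change of the trisomy 3 clone was compared with those of HCT116 18/3 c2 and HCT116 H2B-GFP 8/3 c7, with a two-sided normal test whose variance is the sum of both listed ones and Benjamini-Hochberg adjustment over 558 tests. The control libraries are shared, so their variance is counted in both terms. The control levels worked out differed between the tables for some miRNAs, so the control part does not fully cancel in the difference. Over all miRNAs 106 differences passed, 27 of them among the 54 of deregulated miRNAs. These were chosen by their value in the trisomy 3 clone, so the size of their differences and how many passed are set in part by that choice.

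Differences are given as trisomy 3 minus the other clone on the log2 scale. Against HCT116 18/3 c2 they were 3.51 for miR-30a-5p, 2.66 for miR-302a-5p, 2.32 for miR-138-5p, 2.32 for miR-3617-5p, 1.60 for miR-122-5p, 1.47 for miR-181d, 1.39 for miR-24-1-5p, 1.26 for miR-181b-5p, 1.18 for miR-28-5p, 0.91 for miR-181a-5p, -0.87 for miR-9-5p and -1.17 for miR-200c-5p. Against HCT116 H2B-GFP 8/3 c7 they were 6.78 for miR-30a-5p, 2.42 for miR-138-5p, 2.24 for miR-34c-5p, 2.04 for miR-302a-5p, 1.59 for miR-181a-5p, 1.47 for miR-181b-5p, 1.32 for miR-5091, 1.31 for miR-3617-5p, 1.08 for miR-1296, 0.99 for miR-181d, 0.87 for miR-28-5p, 0.58 for miR-24-1-5p, -0.69 for miR-9-5p, -0.77 for miR-200c-5p and -0.98 for miR-320d. All miR-181 names that were deregulated differed from both clones, as did miR-28-5p, the 1 deregulated miRNA encoded only on chromosome 3. HCT116 18/3 c2 lacks the H2B-GFP fusion, so differences from it also hold that contrast, which cannot be told apart here. For miR-138-5p the control level worked out was 75.4 by the table of the trisomy 3 clone and 5.56 by the others, so the size of its differences depends on the table used. The scaled control level by the tables of HCT116 18/3 c2 and HCT116 H2B-GFP 8/3 c7 was 0.73 and 0.72 of that of the trisomy 3 clone for miR-30a-5p. For miR-302a-5p it was 0.47 and 0.63, and it was lower for miR-3617-5p and miR-122-5p too. The sizes of their differences depend on the table as well.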

How the results depend on the processing

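No paired analysis was possible because the deposited table holds no values of single libraries, and for the same reason no replicate could be left out. The 27 deregulated miRNAs (17 higher, 10 lower) became 17 (11 and 6) with a mean of at least 100, 48 (25 and 23) without the fold change limit, 12 (11 and 1) with a limit of 1, 5 (5 and 0) when tested against a log2 fold change of 0.6, 1 (1 and 0) with a t distribution of 4 degrees of freedom, 14 (11 and 3) with Bonferroni adjustment and 33 (13 and 20) with both groups scaled to the same summed level. Beside the 0 lower calls under 0.6 and under the t distribution stand 80 miRNAs at an unadjusted p under 0.05 in either direction (DESeq2). Centring on the median and dropping the limit on the mean left 27. Groups with a deregulated member, formed only where a sequence or locus coordinates were at hand, numbered 15. They numbered 16 with clusters within 50 kb and 25 without the fold change limit. The chromosome 3 median stayed between -0.19 and -0.01 under all 7 alternatives. The summed-level scaling left miR-24-1-5p, miR-181d, miR-320d and miR-939-5p no longer called. The control levels taken from the other tables were an alternative chosen after seeing the data. Levels under 100 normalised reads rest on few reads, and depth per library was not analysed here.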
